A study of Mus musculus with 3 samples.

Results

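Interferon response genes are a set of 34 mouse genes that cells switch on after contact with interferons, found here by their gene symbols. On these arrays 31 of the 34 were measured by a probe set that carries their symbol alone, among 19938 genes measured in all. Isg15 and Gbp2 were represented only by probe sets that also list another gene, and Ifi44 was not analysed here. These 3 thus have no values of their own and are left out of the main counts. The study measured total RNA on 3 single-colour Affymetrix arrays, 1 for each group. DiBA is labelled as a cultured cell type, in a series whose title names brown adipocytes made by direct conversion. BA has brown adipose tissue as its labelled source, while its description calls it cultured cells. The third array holds cultured mouse fibroblasts. All share 1 description of culture at the same temperature and carbon dioxide level, with treatment given as not applicable, and no genotype, strain, age or transgene appears in the labels.

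Interferons are secreted alarm proteins of antiviral defence. Type I interferons bind the receptor made by Ifnar1 and Ifnar2, and the kinases JAK1 and TYK2 then activate STAT2. STAT2 acts with IRF9 in a complex that binds the interferon-stimulated response element (ISRE) in promoters, whereas interferon gamma signals through IFNGR1 and IFNGR2 to the gamma-activated site (GAS). In brown and beige adipocytes the transcriptional regulator PRDM16 is known to hold down type I interferon response genes.

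Promoters are shown here for 3 members that were at least 2-fold higher in DiBA and in BA than in fibroblasts (Rsad2, Gbp3 and Psmb8) and for 2 that were not (Ifit1 and Oas1a), so that the values below can be read beside the elements that interferons act through. Each is a RefSeq window of assembly GRCm38.p6, from 250 bases before to 50 bases after the gene's start, written 5′ to 3′ on the gene's strand, and for Gbp3, which has several windows, the first. Capitals mark matches to the ISRE core GAAANNGAAA, read on both strands (TTTCNNTTTC on the other), and to the GAS core TTCNNNGAA, which is its own reverse complement. Adjoining ISRE matches can overlap, as they do in Gbp3 and Oas1a, and an ISRE match can overlap a GAS match, as in Bst2, which is not shown.
Rsad2 promoter, chr12:26456403-26456702, minus strand: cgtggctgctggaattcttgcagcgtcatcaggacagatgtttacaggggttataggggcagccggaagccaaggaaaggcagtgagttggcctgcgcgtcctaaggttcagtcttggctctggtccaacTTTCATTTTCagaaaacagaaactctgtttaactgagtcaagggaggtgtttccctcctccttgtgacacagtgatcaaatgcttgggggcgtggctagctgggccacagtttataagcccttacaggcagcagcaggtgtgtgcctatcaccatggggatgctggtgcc
Gbp3 promoter, chr3:142559794-142560093, plus strand: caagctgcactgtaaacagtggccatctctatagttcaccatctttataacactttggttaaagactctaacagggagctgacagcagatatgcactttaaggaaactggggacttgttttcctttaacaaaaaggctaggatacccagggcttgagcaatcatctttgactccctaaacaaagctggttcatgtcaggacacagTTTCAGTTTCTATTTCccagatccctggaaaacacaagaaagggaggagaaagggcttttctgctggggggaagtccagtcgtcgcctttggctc
Psmb8 promoter, chr17:34197945-34198244, plus strand: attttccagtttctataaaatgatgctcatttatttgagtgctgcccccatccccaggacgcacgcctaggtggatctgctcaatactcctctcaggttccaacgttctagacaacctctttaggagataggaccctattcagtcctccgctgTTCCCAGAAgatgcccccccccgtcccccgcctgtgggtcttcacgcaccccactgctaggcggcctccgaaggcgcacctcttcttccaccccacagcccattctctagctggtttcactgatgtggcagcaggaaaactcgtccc
Ifit1 promoter, chr19:34640639-34640938, plus strand: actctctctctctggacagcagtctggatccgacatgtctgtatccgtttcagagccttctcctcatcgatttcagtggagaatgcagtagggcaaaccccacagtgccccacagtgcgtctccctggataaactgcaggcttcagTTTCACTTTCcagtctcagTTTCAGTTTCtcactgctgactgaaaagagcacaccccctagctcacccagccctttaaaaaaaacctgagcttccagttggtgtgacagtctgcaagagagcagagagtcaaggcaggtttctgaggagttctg
Oas1a promoter, chr5:120907476-120907775, minus strand: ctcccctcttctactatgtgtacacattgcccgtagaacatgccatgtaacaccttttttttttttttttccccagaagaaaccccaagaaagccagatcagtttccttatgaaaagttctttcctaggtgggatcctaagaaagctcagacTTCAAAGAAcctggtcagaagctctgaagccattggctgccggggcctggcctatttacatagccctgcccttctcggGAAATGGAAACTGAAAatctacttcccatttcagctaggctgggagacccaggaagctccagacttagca

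Rsad2 held 1 ISRE match, starting 120 bases before the gene's start, and Gbp3 held 2 overlapping matches, starting 45 and 39 bases before it. Psmb8 held no ISRE match and 1 GAS match in this window. Ifit1 held 2 ISRE matches, 104 and 85 bases before the start, and Oas1a held 2 overlapping ISRE matches, 20 and 14 bases before it, and 1 GAS match. Of the 34 members, 26 had a window in the table, and 12 of these (46.2%) held an ISRE match, against 3.99% of 27025 genes. For the GAS core the shares were 30.8% (8 of 26) among members and 9.55% among all genes. An ISRE match was present in 2 of the 5 members with a window that were at least 2-fold higher in DiBA or BA than in fibroblasts, and in 8 of the 18 measured members with a window that were not. A match is a stretch of letters and says nothing about binding in these cells.

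Differences are given on the scale log2(intensity + 1), and folds are taken from it. A gene counts as higher or lower when 2 arrays differ 2-fold or more and the brighter of them reaches 69.2, which is the median intensity over every probe set and array. There were no replicates, so no difference has an error or a test, and each describes these arrays only. Of the 31 members, 25 reached 69.2 in the comparisons with fibroblasts. The 6 that stayed under it on every array were Oas1a, Oas2, Oas3, Ifit1, Mx1 and Mx2, where background sets much of the value. Because many deposited values are exactly equal between arrays, a difference of 0 is no measure of how closely 2 samples match, and why values tie was not tested: 5 members (16.1%) were equal on all 3 arrays, against 31.4% of all genes.

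The labels were set beside cell type markers. All 11 brown adipocyte markers measured exceeded fibroblasts 2-fold or more in DiBA and in BA, with summed intensities of 44793 in DiBA, 46046 in BA and 519 in fibroblasts. Fibroblast markers summed to 17774 in DiBA, 16530 in BA and 37466 in fibroblasts. They did not all go one way: of 12, 7 were lower and 2 higher in DiBA. In BA 8 were lower and 2 higher. Markers of other cells were high on the DiBA array although it is labelled a cultured cell type: skeletal muscle genes summed to 14393 in DiBA, 16276 in BA and 1853 in fibroblasts, with 11 of 12 at least 2-fold higher in DiBA and in BA. Whether the DiBA array holds the RNA its label names could not be settled from the labels and values, which bears on each DiBA value and on how close DiBA and BA lie. Endothelial genes summed to 3928 in DiBA, 4633 in BA and 1366 in fibroblasts, with 9 of 12 higher in DiBA and 10 in BA. Macrophage and dendritic cell genes, a list that includes the member Bst2, summed to 5372 in DiBA, 5337 in BA and 1702 in fibroblasts, with 11 of 17 higher in DiBA and 10 in BA. Lymphocyte and granulocyte genes summed to 372 in DiBA, 372 in BA and 320 in fibroblasts, with 0 of 11 at 2-fold. With intensities under 69.2 raised to it, 10 of the 11 brown adipocyte genes were higher in DiBA and in BA, Elovl3 no longer reaching 2-fold. The endothelial counts were then 8 in DiBA and 10 in BA, the macrophage counts 9 and 9, and the muscle counts did not move. No marker was at an intensity of 0 on any array. The part of these cells in the interferon values was not tested, and in bulk RNA more cells of a type cannot be told apart from more RNA per cell.

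**Figure D1:**
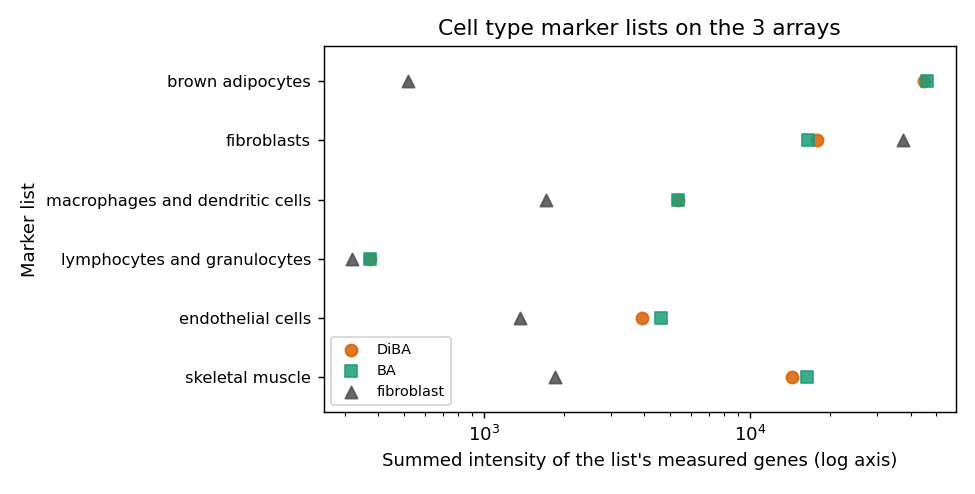
Summed intensity (log axis) of the measured genes of 6 cell type marker lists, with 1 point per array for DiBA, BA and fibroblasts. DiBA and BA lie beside each other in every list, and above fibroblasts for brown adipocyte, muscle, endothelial and macrophage genes (for muscle, 14393 and 16276 against 1853).

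Compared with fibroblasts, 7 of the 31 measured members were at least 2-fold higher in DiBA and 0 lower. They were Ifi27l2a, Psmb8, Rsad2, Gbp3, Psmb9, Parp14 and Dtx3l. Among all 19938 genes, 8.54% were higher and 7.67% lower by the same rule. The share of members higher (22.6%) thus lay above that of all genes, while the share lower lay below it. Part of this gap comes from the minimum intensity that a call needs, which 25 of the 31 members and 11621 of all genes reached. Among the genes that reached it, 14.7% were higher and 13.2% lower, beside 7 and 0 of those 25 members. The members were also chosen with earlier results of these data known. The median difference of the members was 0.05, and that of all genes 0, so most members lay close to no difference: the remaining 24 ranged from Stat2 at -0.70 to Parp9 at 0.94. When arrays were centred on their medians the members' median was -0.02 and 6 were higher, Dtx3l no longer reaching 2-fold.

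In BA, 8 of 31 members were at least 2-fold higher than in fibroblasts and 0 lower, these being the genes named for DiBA and Parp9. Among all genes, 9.51% were higher and 9.59% lower. Of the 11663 genes that reached the minimum intensity, 16.3% were higher and 16.4% lower, beside 8 and 0 of the 25 members that did. The members' median difference was 0.07, beside 0 for all genes, and the other 23 lay between Stat2 at -0.99 and Ifit3 at 0.79. Both comparisons rest on the same fibroblast array, so they are not independent of each other.

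**Figure D2:**
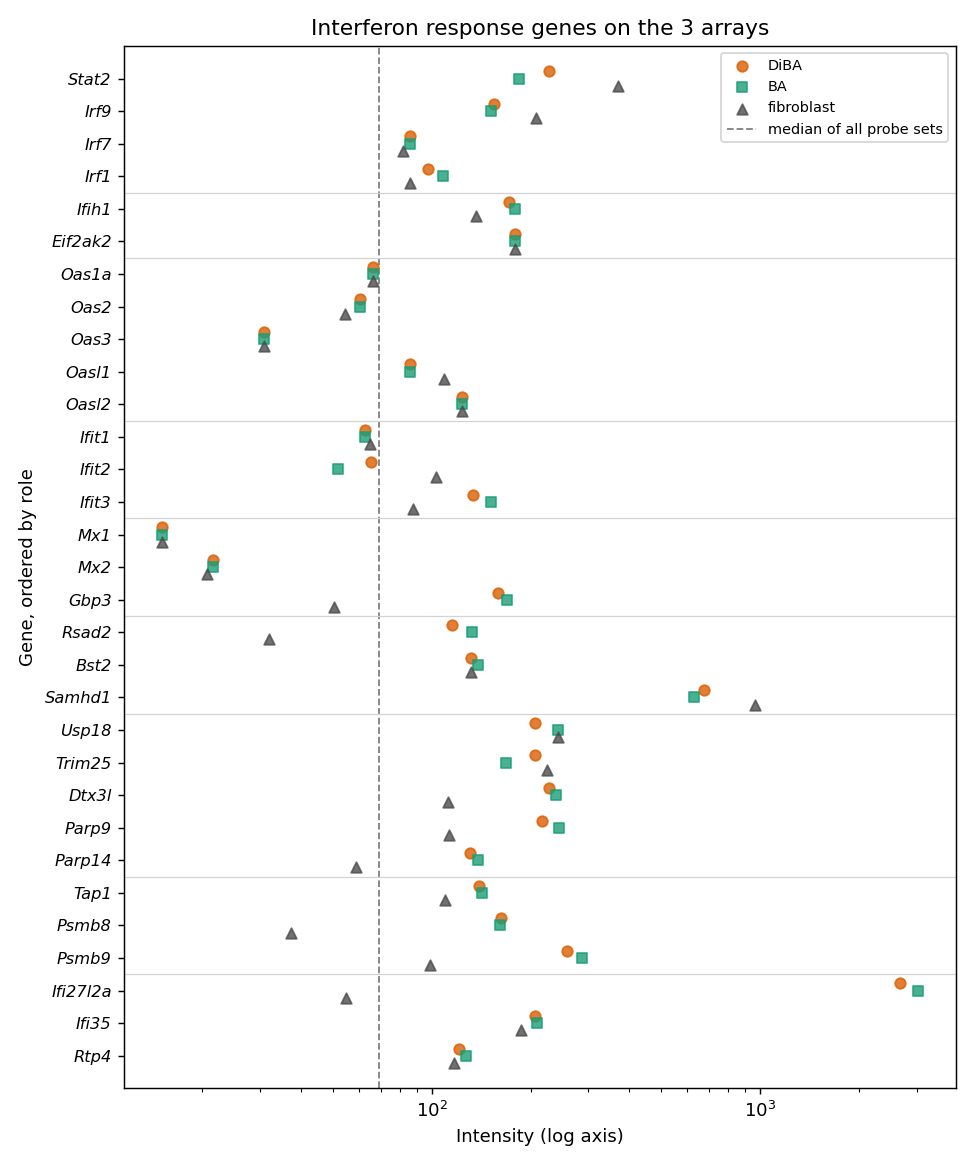
Intensity (log axis) of the 31 measured members on the DiBA, BA and fibroblast arrays, 1 point per array, ordered by role, with the median of all probe sets (69.2) as a dashed line. Points of the same gene are offset vertically, and Irf1 is the average of 2 probe sets on the log scale. Ifi27l2a stands at 2661 in DiBA and 3021 in BA against 54.7 in fibroblasts, while Mx and Oas1a to Oas3 points coincide or nearly so.

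Ifi27l2a, a gene of the Ifi27 family of small interferon-induced proteins, differed more than any other member. Its intensity was 2661 in DiBA and 3021 in BA, against 54.7 in fibroblasts, which is 47.8-fold higher in DiBA and 54.3-fold in BA. With values under 69.2 raised to it the folds were 37.9 in DiBA and 43.1 in BA. The other family members on the arrays behaved differently from one another. Ifi27 had 3897 in DiBA and 4288 in BA against 386 in fibroblasts, a 10.1-fold and 11.1-fold difference, whereas Ifi27l2b, singled out after its values were seen, had 81.6 in DiBA and 75.5 in BA against 56.9. These close relatives may share probes, which was not tested.

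The other members placed apart for want of a shared role were flat. Ifi35, an interferon-induced leucine zipper protein gene, had 207 in DiBA and 209 in BA against 187 in fibroblasts. Rtp4, a receptor transporter protein gene that dampens interferon signalling in mice, had 121 in DiBA and 127 in BA against 117.

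Genes of antigen processing were among the higher members. Psmb8 and Psmb9 encode catalytic subunits of the immunoproteasome, which cuts proteins into peptides for MHC class I, and Tap1 encodes a subunit of the transporter that carries the peptides into the endoplasmic reticulum. Psmb8 had an intensity of 162 in DiBA and 161 in BA, against 37.3 in fibroblasts, 4.25-fold and 4.24-fold higher. With the floor both folds were smaller, at 2.32 in DiBA and 2.31 in BA. Psmb9 had 258 in DiBA and 286 in BA, against 99.1 in fibroblasts, 2.59-fold and 2.87-fold higher. Tap1 did not reach 2-fold, with 139 in DiBA and 142 in BA against 110 in fibroblasts. In the RefSeq gene order Psmb9, Tap1 and Psmb8 follow one another with no protein-coding gene between them, so direct neighbours differed in size of difference.

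A further run of neighbours, Parp14, Dtx3l and Parp9, was higher together. Parp9 and Dtx3l form a complex of an ADP-ribosyltransferase family protein with a ubiquitin ligase that acts in interferon signalling, and Parp14 encodes a related ADP-ribosyltransferase. Dtx3l had 227 in DiBA and 239 in BA, against 112 in fibroblasts, 2.02-fold and 2.12-fold higher. Parp9 had 217 in DiBA and 245 in BA, against 113, so that it was just under the threshold in DiBA (1.91-fold) and over it in BA (2.15-fold). Parp14 had 131 in DiBA and 138 in BA, against 59.0 in fibroblasts, 2.21-fold and 2.32-fold higher. With the floor Parp14 stood at 1.89-fold in DiBA and 1.99-fold in BA, under the threshold. All 3 genes lay near 2-fold, where a small shift of an array decides the count.

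The rest of the ubiquitin-related members did not differ by 2-fold. Usp18, the protease that removes ISG15 from proteins and restrains type I receptor signalling, had 207 in DiBA and 242 in BA against 242 in fibroblasts. Trim25, the ubiquitin ligase that assists the RNA sensor RIG-I, had 207 in DiBA and 168 in BA against 224. The values of Usp18 in BA and fibroblasts were equal, and DiBA was slightly under both.

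Among antiviral effectors the values were mixed. Rsad2, which encodes viperin, an enzyme that makes a chain-terminating nucleotide, had 115 in DiBA and 133 in BA, against 32.0 in fibroblasts, 3.53-fold and 4.05-fold higher. The fibroblast value lay well under 69.2, and with the floor the folds were under the threshold, at 1.66 in DiBA and 1.91 in BA. Gbp3, a guanylate-binding GTPase of defence inside cells, had 159 in DiBA and 169 in BA, against 50.4 in fibroblasts, 3.12-fold and 3.31-fold higher, and 2.28-fold and 2.42-fold with the floor.

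Samhd1, which encodes an enzyme that depletes nucleotides and so limits retroviruses, lay on the other side, with 674 in DiBA and 629 in BA against 962 in fibroblasts, differences of -0.51 and -0.61. Bst2, the gene of tetherin, which holds budding virus at the cell surface, had 132 in DiBA and 138 in BA against 132 in fibroblasts.

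The Mx and OAS genes were within 2-fold on all arrays. Mx1, a dynamin-like antiviral GTPase that is defective in many laboratory strains of mice, had 15.1 on all 3 arrays, and Mx2 had 21.5 in DiBA and BA against 20.7 in fibroblasts. The OAS family comprises enzymes that make oligoadenylates to activate RNase L, together with related OAS-like proteins. Oas1a had 66.3 and Oas3 30.8 on every array, and Oas2 had 60.5 in DiBA and BA against 54.3 in fibroblasts. Oasl2 had 124 on every array, and Oasl1 had 85.7 in DiBA and BA against 109 in fibroblasts. Of these 7 genes, Oasl1 and Oasl2 were the ones above 69.2.

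The IFIT genes, whose products bind foreign RNA, did not differ in one direction. Ifit1 had 62.5 in DiBA and BA against 64.7 in fibroblasts. Ifit2 had 65.4 in DiBA and 52.0 in BA against 103 in fibroblasts, differences of -0.65 and -0.97. Ifit3 had 134 in DiBA and 152 in BA against 87.8 in fibroblasts, differences of 0.60 and 0.79. Ifit2 and Ifit3, which are direct neighbours in the gene order, thus differed in opposite directions without reaching 2-fold.

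The members that transmit the signal were not higher by 2-fold in DiBA or BA. Stat2, the type I specific signal transducer, had 227 in DiBA and 185 in BA against 369 in fibroblasts, differences of -0.70 in DiBA and -0.99 in BA, so that BA lay just inside 2-fold. Its partner Irf9 had 155 in DiBA and 152 in BA against 208 in fibroblasts. Irf7, which amplifies type I interferon production, had 85.9 in DiBA and BA against 82.0 in fibroblasts.

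Irf1, an activator of antigen processing genes downstream of interferon gamma, was measured by 2 probe sets that differed from each other. The first had 200 in DiBA and 248 in BA against 157 in fibroblasts, and the second had 47.0 on every array. Ifih1, which encodes the RNA sensor MDA5, had 172 in DiBA and 179 in BA against 136 in fibroblasts. Eif2ak2, which encodes the RNA-activated kinase PKR, had 179 on every array.

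**Figure D3:**
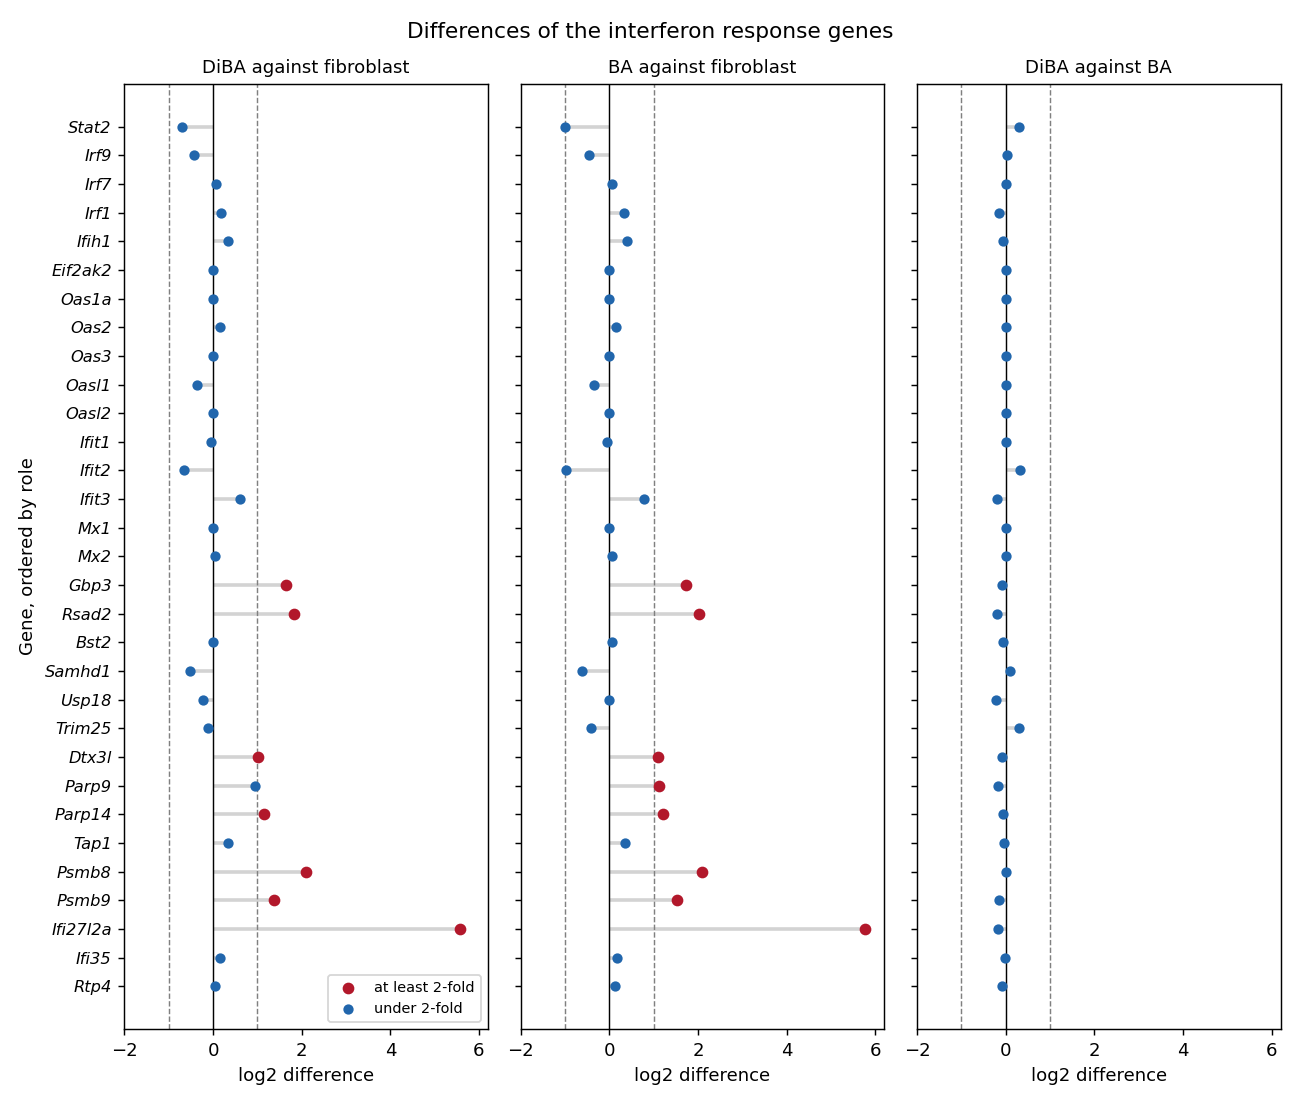
Log2 differences of the 31 measured members for DiBA against fibroblasts, BA against fibroblasts and DiBA against BA, with dashed lines at 2-fold in each direction and members at 2-fold or more in red. The red members number 7, 8 and 0, and in the DiBA against BA panel every point lies between -0.22 and 0.32.

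Between DiBA and BA, 0 of 31 members were at least 2-fold higher and 0 lower, beside 0.973% of all genes higher and 0% lower. Here 24 members reached 69.2. The members' differences ran from -0.22 for Usp18 to 0.32 for Ifit2, with a median of 0, and 10 members had equal values on both arrays. Of the rest, 6 were above 0 and 15 below. Among members that exceeded 2-fold over fibroblasts, Ifi27l2a differed by -0.18, Rsad2 by -0.20, Psmb9 by -0.15, Gbp3 by -0.09 and Psmb8 by 0. Prdm16, the regulator named above, had 1084 in DiBA and 223 in BA, a 4.85-fold difference, against 94.3 in fibroblasts. It is an exception to the rule for naming genes. Neither the source of its signal nor its part in the members' values was tested.

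The surrounding pathway was described from further gene lists. Of 16 interferon genes measured, 0 were higher in DiBA or in BA than in fibroblasts, and 1 was lower in BA, Ifnz, with 248 in DiBA and 138 in BA against 376. Only 3 of the 16 reached 69.2. Among receptors and kinases, 3 of 10 were higher than in fibroblasts in both DiBA and BA, and 0 lower. Ifnar2, a chain of the type I receptor, had 2117 in DiBA and 2235 in BA, against 853 in fibroblasts, 2.48-fold and 2.62-fold higher.

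The partner chain Ifnar1 had 455 on every array. For the interferon gamma receptor, Ifngr1 had 980 in DiBA and 1010 in BA, against 378, 2.59-fold and 2.67-fold higher, while Ifngr2 had 870 in DiBA and 911 in BA against 1049. Il10rb, a chain that lambda interferon receptors share with interleukin receptors, was 2.23-fold higher in DiBA and 2.47-fold in BA. For each of the type I and gamma receptors, then, 1 chain was over 2-fold and the other was not. The kinases did not reach 2-fold: Jak1 had 1344 in DiBA and 1127 in BA against 1743 in fibroblasts, and Tyk2 had 152 in DiBA and 153 in BA against 152.

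Of 19 genes that sense nucleic acids or relay that signal, 2 were higher and 1 lower in both DiBA and BA than in fibroblasts. The share higher, 10.5% in each, was close to that of all genes, 8.54% in DiBA and 9.51% in BA. The share lower was 5.3% in each, against 7.67% and 9.59% of all genes. Mavs, the mitochondrial adaptor of RNA sensors, had 919 in DiBA and 1087 in BA, against 305, 3.01-fold and 3.55-fold higher. Tlr3, an endosomal receptor for double-stranded RNA, was 2.99-fold and 3.06-fold higher, but 1.32-fold and 1.35-fold with the floor. Sting1, the adaptor of cytosolic DNA sensing, was lower, with 253 in DiBA and 155 in BA against 586 in fibroblasts, differences of -1.21 and -1.91. Irf3, the transcription factor that both pathways activate, had 182 in DiBA and BA against 179.

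Of 10 genes that restrain interferon or cytokine signalling, 1 was higher and 0 lower in both DiBA and BA than in fibroblasts. The higher gene was Cish, of the suppressor of cytokine signalling family, at 2.57-fold in DiBA and 2.87-fold in BA. The phosphatase gene Ptpn11 had 888 in DiBA and BA against 895 in fibroblasts.

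Of 41 further interferon-induced genes, 12 were higher in DiBA than in fibroblasts and 1 lower, and in BA 12 were higher and 3 lower. The share higher was 29.3% in each, beside 8.54% of all genes in DiBA and 9.51% in BA. The share lower was 2.4% and 7.3%, beside 7.67% and 9.59% of all genes. With the floor 10 of the 41 were higher in each. Their median difference was 0.60 in each comparison. Ifi205, a gene of the interferon-inducible p200 family, had 748 in DiBA and 918 in BA, against 21.5 in fibroblasts, 33.3-fold and 40.9-fold higher, and 10.7-fold and 13.1-fold with the floor. Slfn5, a schlafen family gene, was 10.3-fold and 12.1-fold higher. Its relatives Slfn2 and Slfn8, chosen after their values were seen, had 69.7 and 36.0 on every array. Cxcl9, a chemokine gene that interferon gamma induces, was 9.83-fold and 11.3-fold higher, with 395 in DiBA and 453 in BA against 39.3, and 5.65-fold and 6.48-fold with the floor. The chemokine genes Cxcl10 and Cxcl11 of the same list, also chosen after their values were seen, were not higher. Cxcl10 had 49.1 in DiBA and 56.0 in BA and fibroblasts, and Cxcl11 had 22.7 on every array, all under 69.2. Ifitm3, which blocks virus entry at endosomes, was lower, with 2438 in DiBA and 1832 in BA against 5044, differences of -1.05 and -1.46. The other guanylate-binding protein genes measured, chosen after their values were seen, ran the same way as Gbp3: Gbp4 was 8.86-fold higher in DiBA, Gbp7 3.33-fold and Gbp9 2.09-fold. With the floor Gbp4 was 3.13-fold higher and Gbp9 1.57-fold, which no longer reached 2-fold, while Gbp5, at 44.0 in DiBA against 11.6 in fibroblasts, did not reach 69.2.

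Of 14 further genes of MHC class I presentation, 5 were higher in DiBA than in fibroblasts and 1 lower, and in BA 5 were higher and 2 lower, with median differences of 0.73 and 0.89. The share higher was 35.7% in each, beside 8.54% of all genes in DiBA and 9.51% in BA. The share lower was 7.1% and 14.3%, beside 7.67% and 9.59% of all genes. Tapbp, which encodes tapasin and loads peptides onto MHC class I, had 707 in DiBA and 769 in BA, against 231 in fibroblasts, 3.05-fold and 3.32-fold higher. H2-Q4, a non-classical class I gene with near-identical relatives, had 146 in DiBA and 166 in BA, against 35.8, and was 2.10-fold and 2.37-fold higher with the floor. The light chain gene B2m did not reach 2-fold, with 4985 in DiBA and 5078 in BA against 3515. The lower genes were general folding factors of the endoplasmic reticulum, Calr at -1.17 in DiBA and -1.45 in BA, and Pdia3, with 1521 in DiBA, just short of the threshold, and 1227 in BA, against 3037 in fibroblasts. H2-K1 and H2-D1 were not analysed here. Between DiBA and BA, 0 genes of these 6 lists reached 2-fold in either direction.

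**Figure D4:**
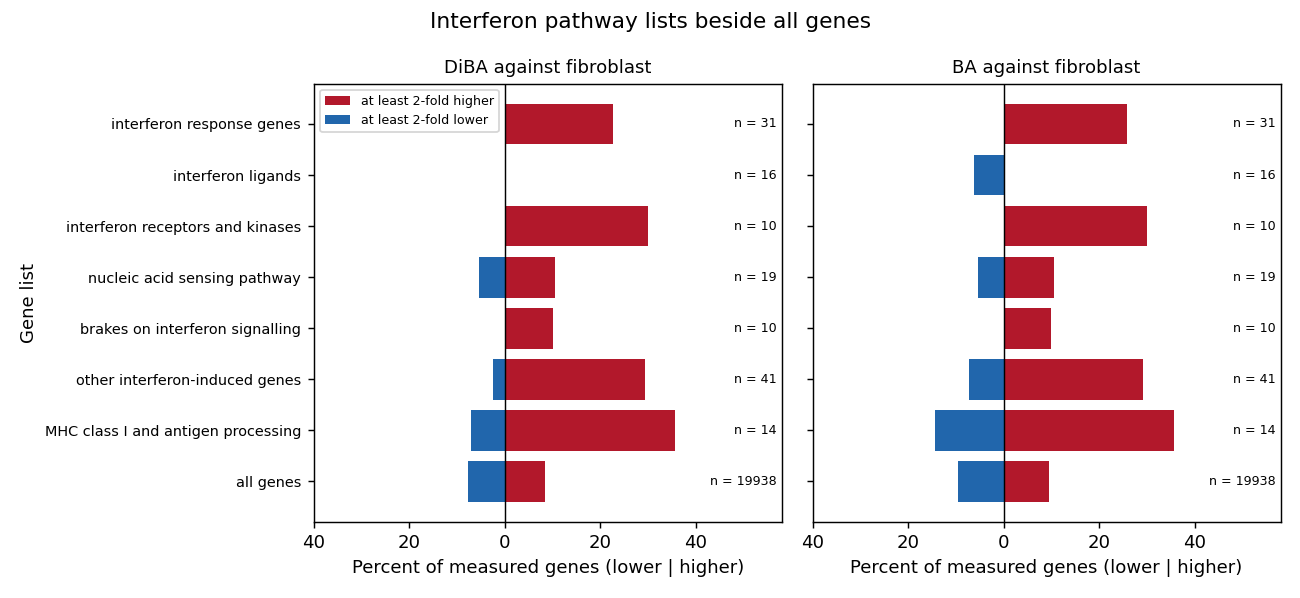
Percent of measured genes at least 2-fold higher (right, red) or lower (left, blue) than fibroblasts, for the interferon response genes, 6 lists of the surrounding pathway and all genes, in DiBA and in BA, with the number measured in each list. Higher members make up 22.6% in DiBA and 25.8% in BA, beside 8.54% and 9.51% of all genes. Each percent is of all genes measured in the list, including those under the minimum intensity that a call needs.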

How the data were processed

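Total RNA of 3 mouse samples was hybridised to 3 arrays, 1 per group. The authors deposited 1 linear intensity per probe set and array, for which the submitters' processing notes name Affymetrix Expression Console, with background correction, summarization and normalization not given in the sources used here. Array medians were 71.5 (DiBA), 67.7 (BA) and 67.8 (fibroblasts), so values were used as deposited.

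Of 28943 probe sets, 21789 carried 1 symbol in GEO's platform annotation, 1621 carried several and 5533 were not listed. The first gave 19938 genes, with probe sets of a gene averaged as log2(intensity + 1). Calls needed 2-fold and an intensity of 69.2 on the higher array. No test was possible with 1 array per group, and the number of arrays limits the precision. The fold calls were tested on simulated data of known folds, which gives no error for the calls on these arrays. The simulated folds were well over 2-fold and set on genes well above 69.2. Calls near the threshold or near background were thus not probed. Lists and members were chosen with earlier results of these data known. Every member is given. Of other lists, up to 4 genes with the highest absolute called differences, the one with the highest mean and 11 fixed genes were eligible for naming, and exceptions are stated. Motifs came from RefSeq windows of GRCm38.p6. Alternatives covered centring, quantile normalization, level filters, a floor, the pseudocount, the choice of probe set and the fold threshold. Analyses used Python 3.11.15, pandas 2.3.3 and numpy 2.4.6.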

Additional observations from a re-analysis of the deposited data

How the results depend on the processing

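The counts of members at least 2-fold higher than fibroblasts, 7 in DiBA and 8 in BA, depended most on the level filter, and next on the fold threshold. With the level filter at the 75th percentile of all intensities, 2 of 31 were higher in DiBA and 2 in BA. That filter removes members of lower intensity. By the same filter 6.34% of all genes were higher in DiBA and 7.3% in BA. The members' share was then close to that of all genes. Most members lay under this filter, at 246, on every array and could not be called. Those that reached it were Stat2, Samhd1, Psmb9 and Ifi27l2a, of which Psmb9 and Ifi27l2a were higher. The shares at this filter thus cannot show whether the members of lower intensity differed from all genes. At 3-fold, 4 were higher in DiBA and 4 in BA, beside 5.3% and 5.84% of all genes. At 1.5-fold, 2 were lower in DiBA and 3 in BA, where the 2-fold rule gave 0. Of all genes 13.78% and 15.29% were then lower. The higher counts at 1.5-fold were 9 in DiBA and 9 in BA, beside 12.47% and 13.42% of all genes. Under centring, quantile normalization, no level filter, the floor, a pseudocount of 16 and the highest probe set per gene, the higher counts ran from 5 to 7 in DiBA and from 6 to 8 in BA. The lower counts stayed at 0, and between DiBA and BA no alternative called a member in either direction. The members' median in DiBA against fibroblasts was -0.02 with centred arrays. An alternative chosen after seeing the data counted for Isg15 and Gbp2 their probe sets that also list another gene. With these, 33 members were measured, of which 8 were higher in DiBA and 9 in BA, beside 8.55% and 9.52% of all genes. The Gbp2 probe set had 314 in DiBA and 367 in BA against 99.5 in fibroblasts. The Isg15 probe set went the other way, with 30.7 in DiBA and BA against 44.4, under 69.2 on every array. No called member changed sign under any alternative run. With the floor, 5 members were higher in DiBA and 6 in BA, beside 7.68% and 8.74% of all genes. The difference of Rsad2 from fibroblasts was then 0.73 in DiBA and 0.93 in BA, and Psmb8 was at 1.21 in both. No paired analysis was possible because each group holds 1 array. Members under 69.2 on every array have no usable order of values.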
